A study of Homo sapiens with 16 samples.

Results

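The genes described here are 10 classic targets of the transcriptional cofactor YAP and its DNA-binding partners, the TEAD factors: CCN1, CCN2, ANKRD1, AMOTL1, AMOTL2, GADD45A, AXL, AJUBA, F3 and NUAK2. They were named by gene symbol, and the H3K27ac regions given to each were those lying in its gene body or within 100 kb of its 5′ end with at least 1 base. By this rule 35 of the 7130 listed regions (0.491%) belonged to the 10 genes, of 19970 protein-coding genes in all, and 0 of the 35 belonged to more than 1 of them.

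H3K27ac, the acetylation of lysine 27 of histone H3 found at active promoters and enhancers, was profiled by chromatin immunoprecipitation and sequencing in LX-2, an established line of human hepatic stellate cells that grows as myofibroblasts. Control cells received the vehicle DMSO, and OGTi cells were kept for 24 h in 50 µM OSMI-1, with 4 H3K27ac replicates in each arm. OSMI-1 blocks OGT, the O-GlcNAc transferase that attaches O-GlcNAc to nuclear and cytoplasmic proteins. All libraries came from this single cell line. The data are 2 lists of positions on hg38, one of 3507 regions where H3K27ac was lower under OGTi (lost) and one of 3623 where it was higher (gained). They hold neither a signal, nor a fold change, nor a value per replicate, so the size of each change and its spread between replicates cannot be given, read depth is unknown, and every count below is a description without a test.

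YAP and its paralog TAZ do not bind DNA on their own. The kinases of the Hippo pathway keep them in the cytoplasm. When the pathway is low, for instance in cells spread on a stiff matrix, they enter the nucleus and join TEAD factors on a short DNA element, mostly in enhancers lying away from gene starts. In hepatic stellate cells, YAP is known to take part in the passage to the collagen-secreting myofibroblastic state.

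The 10 genes did not share a direction. Regions of lost H3K27ac lay at 5 of them, while 21.6% of all protein-coding genes had one by the same rule. Gained regions lay at 8 of them, against 30.6% of all genes. CCN1, AJUBA, F3 and NUAK2 had both directions, that is 4 of 10 genes against 7.23% of all. AMOTL2 had lost regions alone, ANKRD1, AMOTL1, GADD45A and AXL gained regions alone, and CCN2 had neither, as had 55% of all genes. Among the 8987 protein-coding genes with a listed region of either kind, 48.1% had a lost one, 68.0% a gained one and 16.1% both. All of the 10 genes but CCN2 belong to this group. At gene starts only gained regions were found. Over all genes too, gained promoter regions were more common than lost ones, and lost ones were rare. A promoter region, defined as one with a base within 2500 bp of the 5′ end, was lost at 0 of the 10 genes (1.96% of all genes) and gained at 3, ANKRD1, GADD45A and AXL (6.41% of all genes).

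**Figure D1:**
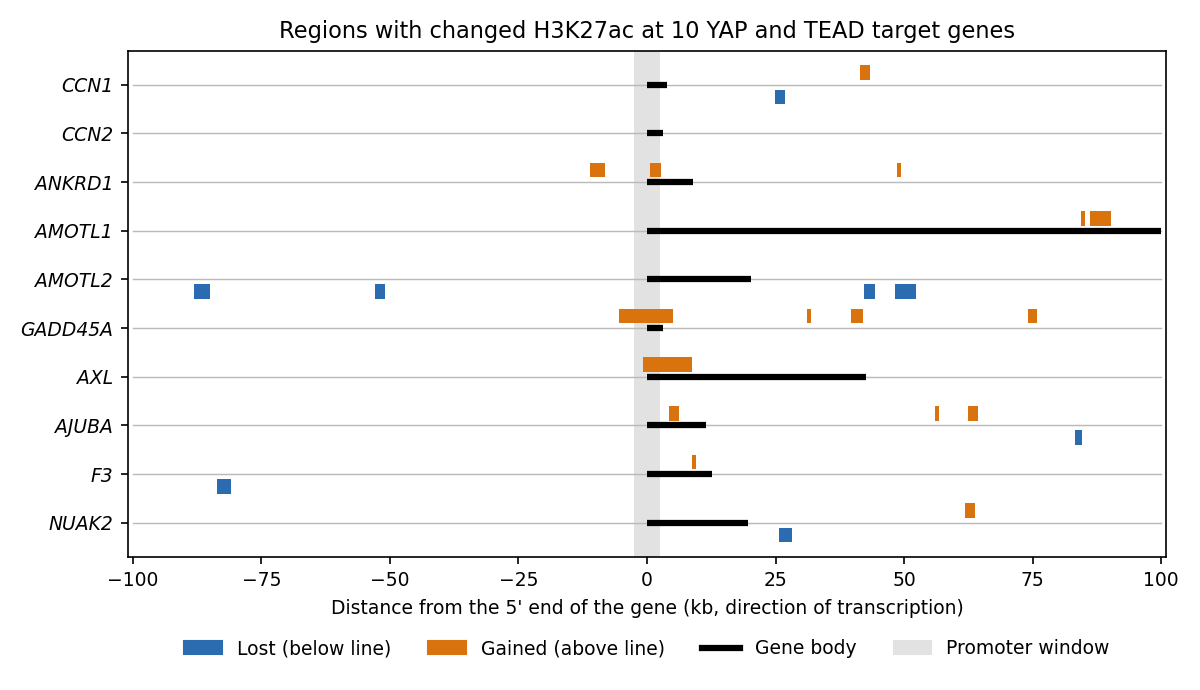
Positions of the 35 regions relative to the 5′ end of each of the 10 genes, in kb along the direction of transcription (negative values are upstream), with lost regions drawn below and gained regions above each line, gene bodies in black and the promoter window shaded; the body of AMOTL1 runs on beyond the right edge. The shaded window holds gained regions of ANKRD1, GADD45A and AXL and no lost region.

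**Figure D2:**
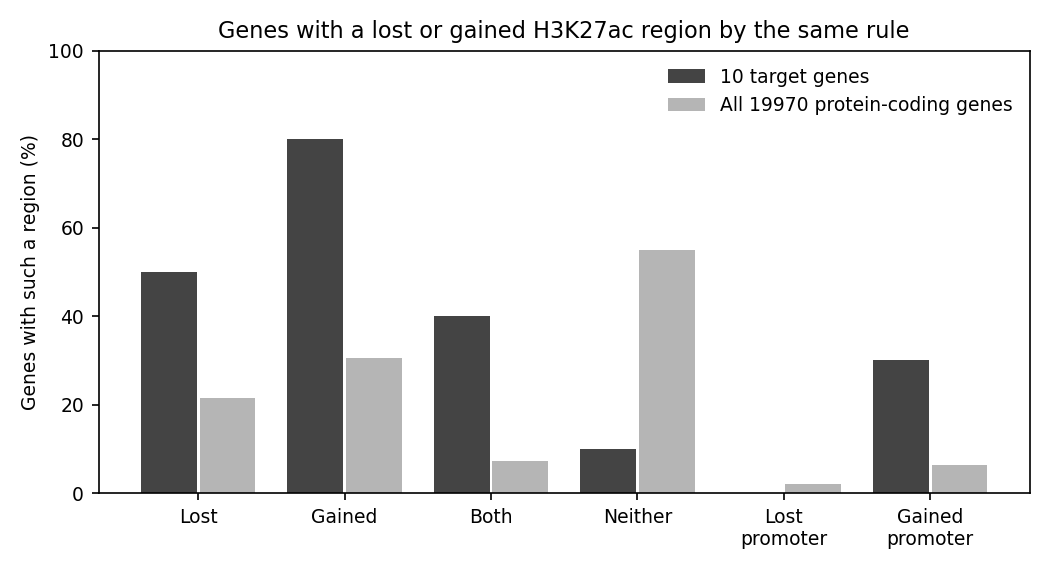
Percent of the 10 target genes (dark bars) and of all 19970 protein-coding genes (light bars) with a lost region, a gained region, both, neither, a lost promoter region or a gained promoter region. The dark bars stand at 50%, 80%, 40%, 10%, 0% and 30%.

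The TEAD recognition element was searched as the core CATTCC and as the 4 longer forms ACATTCCA, ACATTCCT, GCATTCCA and GCATTCCT, each of which holds the core, on both strands. The sequences below are every 8-base form in the 7 regions with 4 or more cores, printed because these regions carried the most cores, and the one such form in a promoter region, that of AXL. Each line gives the gene, the direction of its region, the hg38 position and strand of the 8 bases in capitals, and these 8 bases with 10 flanking bases on each side, read on the strand that holds the core.
CCN1, lost, chr1:85605942-85605949, minus strand: cacacggcacACATTCCAtcaggcaaat
CCN1, lost, chr1:85607270-85607277, plus strand: ttggggtcaaGCATTCCAgggagaggag
CCN1, lost, chr1:85607495-85607502, minus strand: tcaggcctccACATTCCTgaaatacttt
CCN1, gained, chr1:85622766-85622773, minus strand: caaaatatgaGCATTCCTtggtttaggg
CCN1, gained, chr1:85623583-85623590, minus strand: attttccaatACATTCCAaagacagtag
AMOTL2, lost, chr3:134324172-134324179, plus strand: ctttaaccttGCATTCCTaaccctatct
AMOTL2, lost, chr3:134326370-134326377, minus strand: atgaggaatgGCATTCCTgagaccactc
AMOTL2, lost, chr3:134331537-134331544, minus strand: gggctcgcccACATTCCAggatcaggga
AMOTL2, lost, chr3:134331919-134331926, minus strand: taaataaataGCATTCCAgagagaatgg
AMOTL2, lost, chr3:134332741-134332748, minus strand: tctgtggggaGCATTCCAgaaggagcaa
ANKRD1, gained, chr10:90929405-90929412, minus strand: ttattctgtaGCATTCCTgtggctctag
ANKRD1, gained, chr10:90930685-90930692, minus strand: tccttgccaaACATTCCTtttcagggag
ANKRD1, gained, chr10:90930951-90930958, minus strand: gacaaatcaaACATTCCTttaatttttc
AJUBA, gained, chr14:22977831-22977838, plus strand: acagtggcagGCATTCCTggagcgtgat
AJUBA, gained, chr14:22977977-22977984, plus strand: caccctccccACATTCCAgtctttcact
AXL, gained, chr19:41218932-41218939, minus strand: tgtctggtaaACATTCCTccagaactcc

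The 4 forms were matched 11 times in the lost and 17 times in the gained regions of the 10 genes. ACATTCCA was found 2 times in lost and 5 times in gained regions, and ACATTCCT 3 and 6 times. GCATTCCT was found 2 and 6 times. GCATTCCA was found 4 times in lost regions, mostly at AMOTL2 and otherwise at CCN1, and 0 times in gained ones. The single forms were not counted over all listed regions.

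The secreted CCN proteins, matricellular factors that are the usual readouts of YAP activity, differed in whether they had listed regions. CCN1 (chr1:85580761-85584589, plus strand) had 1 lost and 1 gained region, both intergenic and downstream of the gene. The lost region (chr1:85605637-85607554) began 24.88 kb from the 5′ end and the gained one (chr1:85622231-85624069) 41.47 kb from it. CCN1 had the nearest protein-coding 5′ end to both. The lost region held 4 core matches and the gained one 5, a number reached by 39 of the 3623 gained regions (1.08%). Elements of the same form were therefore present in neighbouring regions of opposite direction, as the first 5 sequences above show.

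CCN2, a profibrotic protein of myofibroblasts (chr6:131948176-131951372, minus strand), had neither a lost nor a gained region. The nearest listed region was a lost one at chr6:131061650-131063948, 887.4 kb from the 5′ end, and 7.57% of protein-coding genes were as far or farther from any listed region. The lists give changed regions only, so whether the CCN2 promoter carried H3K27ac in these cells cannot be read from them. For CCN1 and GADD45A the RefSeq promoter set used here had no entry, so their RefSeq promoters were not searched. The 250 bases upstream of the CCN2 start are shown because they hold the densest set of TEAD cores among the RefSeq promoters of the other 8 genes. The sequence is that of RefSeq on GRCh38.p14, on the strand of the gene, with the 3 cores in capitals, all in the reverse orientation GGAATG.
CCN2, chr6:131951373-131951622, minus strand: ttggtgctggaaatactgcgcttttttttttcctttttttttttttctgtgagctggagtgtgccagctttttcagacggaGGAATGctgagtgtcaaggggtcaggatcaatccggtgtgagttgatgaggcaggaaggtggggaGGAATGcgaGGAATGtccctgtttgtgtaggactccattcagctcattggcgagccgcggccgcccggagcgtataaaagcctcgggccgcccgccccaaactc

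The cores began 169, 104 and 95 bases upstream of the start, and all 3 belonged to one of the 8-base forms. Over 35116 RefSeq promoters of 300 bases (250 upstream and 50 downstream of the start), 14.03% held a core and 4.15% an 8-base form. A match is a string of letters, not a site shown to be bound.

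AXL, a receptor tyrosine kinase for the ligand GAS6, had 5 gained regions and 0 lost ones within the window. These 5 regions abutted and formed one block of 9529 bp (chr19:41218446-41227974) at this gene of 42.54 kb. The block ran from 777 bp upstream to 8751 bp downstream of the 5′ end. The first (chr19:41218446-41220266) covered the start and the second (chr19:41220267-41222266) began 1044 bp into the gene, so that both were promoter regions. The other 3 had their centres in introns and lay within 2500 bp of the start of another annotated AXL transcript. The last of them covered a RefSeq start of AXL inside the gene, at chr19:41226755. The block held 7 cores, of which the ACATTCCT printed above was centred 287 bases upstream of the start. Of 3210 gained blocks, 9 were as wide or wider (0.280%). Regions that abut come from the division of wide peaks into bins by the authors, hence the 5 regions are counted apart although they form one stretch.

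F3 encodes tissue factor, the membrane protein that starts blood coagulation, and had both directions. Its gained region (chr1:94532207-94533020) was a short one of 814 bp in an intron, 8.739 kb downstream of the 5′ end, with 0 cores. Its lost region (chr1:94622632-94625287) lay 80.87 kb upstream, in an exon of the non-coding SLC44A3-AS1, with 3 cores. Loss was thus far upstream and gain inside the gene. Further lost regions lay just outside the window, at 111.0 kb and then between 170.9 and 188.5 kb from the 5′ end, 6 in all. Of these, 1 had F3 and 5 had SLC44A3 as the nearest protein-coding gene. The F3 promoter in RefSeq held 0 cores and 2 matches of the AP-1 motif TGANTCA, the element of FOS and JUN dimers, 223 and 210 bases upstream of the start.

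The angiomotin-like genes had opposite directions. Angiomotins are scaffold proteins of cell junctions and actin fibres that bind YAP and hold it out of the nucleus, so that their induction by YAP closes a feedback loop. AMOTL2 (chr3:134355347-134375479, minus strand) had 6 lost and 0 gained regions, and only 299 protein-coding genes (1.497%) had as many listed regions or more. AMOTL1 (chr11:94706431-94876748, plus strand) had 3 gained and 0 lost regions.

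Each of the 6 AMOTL2 regions was distal. Downstream of the gene, chr3:134331197-134333196 was intergenic and began 42.28 kb from the 5′ end, and the abutting chr3:134325197-134327196 and chr3:134323230-134325196 lay in an intron of the non-coding LINC02004, at 48.28 and 50.28 kb. These 3 regions held 8, 6 and 4 TEAD cores. They were among the richest of the lost list, since 5 of 3507 lost regions (0.143%) had 8 or more cores, 32 (0.912%) had 6 or more and 343 (9.78%) had 4 or more. Upstream, chr3:134426341-134428309 lay 50.86 kb away, and the abutting chr3:134460497-134461567 and chr3:134461568-134463567 lay 85.02 and 86.09 kb away. These 3 had 1 core each, and for the last 2 the 5′ end of CEP63, a centrosomal protein gene, was nearer, at 24.13 and 22.13 kb. Most of the 21 cores at AMOTL2 were therefore on its downstream side.

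For the region with 8 cores, a stretch of 250 bases that held as many of them as any other in the region is printed on the plus strand, with its 3 cores in capitals. One core is followed directly by another.
AMOTL2, lost, chr3:134332332-134332581, plus strand: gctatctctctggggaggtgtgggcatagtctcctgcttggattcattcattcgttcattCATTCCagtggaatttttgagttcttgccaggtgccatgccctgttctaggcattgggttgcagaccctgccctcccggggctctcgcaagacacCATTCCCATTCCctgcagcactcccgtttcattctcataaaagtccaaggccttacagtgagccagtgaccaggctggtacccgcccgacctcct

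**Figure D3:**
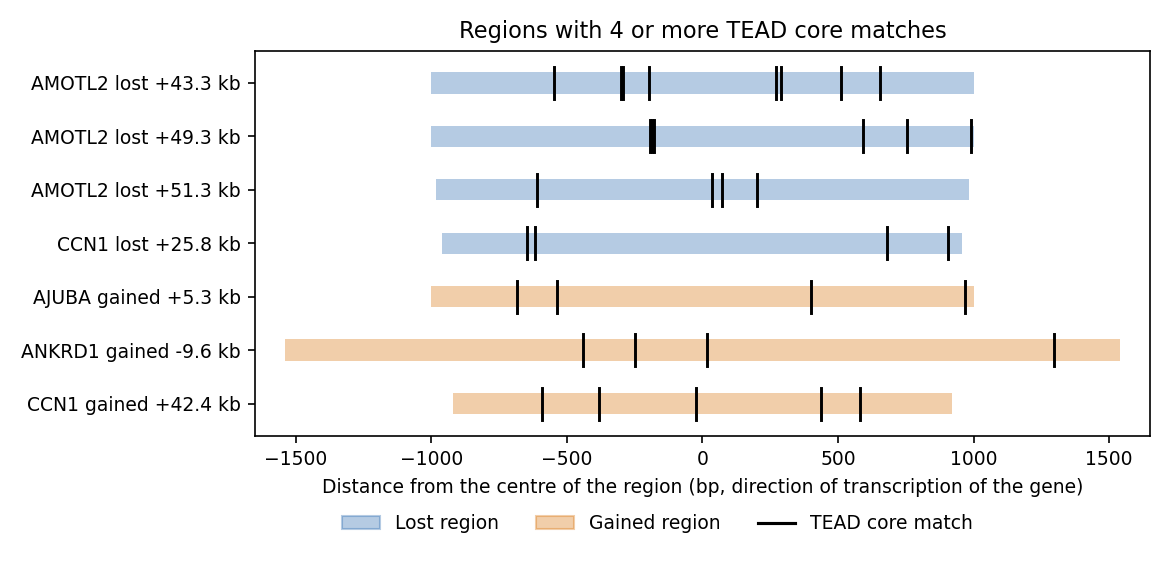
Positions of TEAD core matches (black ticks, either strand) in the 7 regions with 4 or more of them, in bp from the centre of the region along the direction of transcription of the gene; the bars show the width of each region, blue for lost and orange for gained, and the labels give the distance of the region's centre from the 5′ end. The AMOTL2 region 43.3 kb downstream carries 8 ticks spread over its width, and the CCN1 gained region carries 5.

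The 3 gained regions of AMOTL1 lay inside this gene of 170.3 kb, in introns 84.63, 86.11 and 88.45 kb downstream of the 5′ end. These distances were taken from the outermost GENCODE 5′ end, at chr11:94706431. The RefSeq start, of which the promoter is described below, lies inside the gene at chr11:94768356 and is nearer to the 3 regions. The last 2 abutted and made a block of 4201 bp (chr11:94792545-94796745). They held 3 and 1 cores, whereas the first, of 341 bp, held 0. The nearest lost region was 569.9 kb from the 5′ end of AMOTL1, and the nearest gained region 1693 kb from that of AMOTL2.

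ANKRD1 encodes an ankyrin-repeat protein of the nucleus and of muscle sarcomeres that responds strongly to YAP. It had 3 gained and 0 lost regions, and the nearest lost region was 1969 kb away. The promoter region (chr10:90918417-90920416) did not cover the start itself but began 671 bp downstream of it, inside the gene, with 1 core. A wide intergenic region of 3082 bp (chr10:90929165-90932246) lay 8.078 kb upstream and held 4 cores, a number reached by 142 of 3623 gained regions (3.92%), 3 of them in the 8-base forms printed above. The third, of 409 bp, lay 48.73 kb downstream over the 5′ end of RPP30, a ribonuclease P subunit gene, and held 0 cores. The ANKRD1 promoter is shown because it lies between the regions that gained H3K27ac, with 2 cores in capitals (GGAATG) 220 and 128 bases upstream of the start. A match of the AP-1 motif lay 195 bases upstream, and neither core belonged to an 8-base form.
ANKRD1, chr10:90921088-90921337, minus strand: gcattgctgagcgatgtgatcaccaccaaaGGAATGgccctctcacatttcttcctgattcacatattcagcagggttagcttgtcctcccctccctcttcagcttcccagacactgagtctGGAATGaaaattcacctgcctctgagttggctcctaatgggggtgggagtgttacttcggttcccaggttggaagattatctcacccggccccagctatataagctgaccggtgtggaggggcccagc

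AJUBA is a LIM-domain protein of cell junctions that binds the LATS kinases of the Hippo pathway. It had 3 gained regions and 1 lost region in a stretch dense in other genes. The gained region inside AJUBA (chr14:22976299-22978298) began 4.253 kb downstream of the outermost 5′ end and held 4 cores. It covered another AJUBA start in RefSeq, at chr14:22976842. It was also in an intron of an overlapping protein-coding gene (ENSG00000259132), whose 5′ end, at 3.960 kb, was nearer than the outermost one of AJUBA. The other 3 AJUBA regions were far from the gene and close to others. The gained chr14:22918275-22920052 covered the 5′ end of RBM23, the gained chr14:22925995-22926247 lay in an intron of PRMT5, 3.161 kb from the 5′ end of that gene, and the lost chr14:22897973-22899223 lay in an exon of RBM23, 14.75 kb from the 5′ end of REM2. The lost region was the one of the 10 lost regions without a TEAD core. When regions were given to the gene with the nearest outermost protein-coding 5′ end instead, AJUBA kept 0 of its 4 regions. The AJUBA start covered by the gained region was not used for this.

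GADD45A, an inducer of growth arrest after DNA damage and other stress, had the most regions of the 10 genes, 8 gained and 0 lost. Only 95 protein-coding genes (0.476%) had as many listed regions or more. Of these 8 regions, 5 abutted in a block of 10433 bp (chr1:67679740-67690172) reaching from 5461 bp upstream to 4971 bp downstream of the 5′ end, so that the whole gene of 3.134 kb lay in it. It was the fifth widest of 3210 gained blocks (0.156%). In the gained list 11 blocks held 5 or more regions and 4 of these lay at a protein-coding promoter, as those of GADD45A and AXL did. In the lost list 6 blocks held 5 or more regions and 0 of these lay at such a promoter. The promoter regions of GADD45A numbered 3, which 7 protein-coding genes reached (0.0351%).

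The TEAD cores of the GADD45A block were all in its outermost upstream region (chr1:67679740-67682337), which held 3, each in an 8-base form. The 4 other regions of the block, including the one over the start with a GC content of 62.6%, held 0. Within these 4, the AP-1 motif was matched 3, 1, 1 and 0 times from the upstream to the downstream end. The 3 remaining regions lay in introns of the neighbouring gene GNG12, a G protein subunit gene, 31.32, 39.64 and 74.10 kb downstream, with 0, 3 and 2 cores. The last was nearer to the 5′ end of GNG12, at 72.39 kb.

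**Figure D4:**
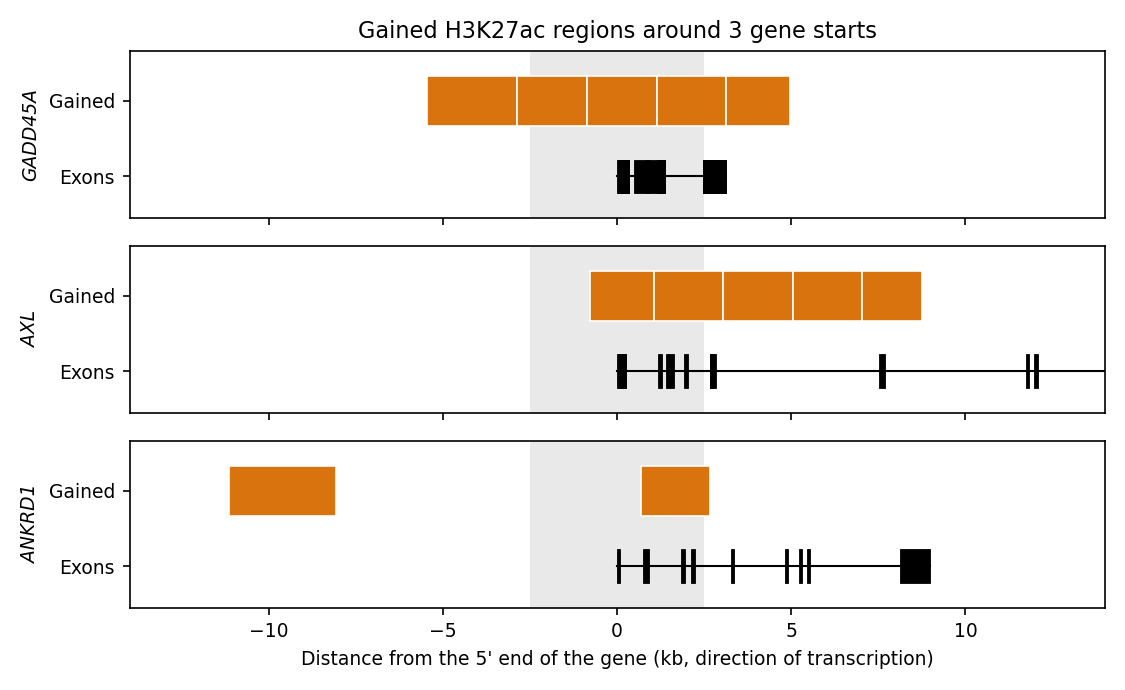
Gained regions (orange, white lines mark the limits of abutting regions) and exons (black) around the 5′ ends of GADD45A, AXL and ANKRD1, in kb along the direction of transcription, with the promoter window shaded. At GADD45A and AXL 5 abutting regions cover the start in blocks of 10433 and 9529 bp, and at ANKRD1 a single region begins 671 bp downstream of it.

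NUAK2, an AMPK-related kinase that acts on actomyosin contraction, had 1 lost and 1 gained region, both downstream of the gene. The lost region (chr1:205293562-205296133) was intergenic, 25.61 kb from the 5′ end, with 1 core and 3 AP-1 matches. The gained region (chr1:205257917-205259952) lay 61.79 kb from the 5′ end in an intron of TMCC2, whose 5′ end was nearer at 29.97 kb, with 2 cores. The NUAK2 promoter in RefSeq held 2 cores, 197 and 18 bases upstream of the start, and 0 listed regions overlapped it. CCN2, ANKRD1 and NUAK2 thus had more than 1 core in the promoter, and none of these promoters overlapped a listed region. The promoters of F3, AMOTL1 and the outer starts of AMOTL2, AJUBA and AXL held 0 cores, and the inner starts of AMOTL2, AJUBA and AXL 1 each. Both AXL promoters and the inner AJUBA promoter overlapped gained regions. The promoters of F3 and AMOTL1, both of AMOTL2 and the outer one of AJUBA overlapped no listed region either. The share of all RefSeq promoters that overlap a listed region was not counted, so a link between cores and overlap was not tested. A RefSeq promoter spans 300 bases, so the gained promoter region of ANKRD1, which began 671 bp downstream of the start, lay outside it.

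The lost regions of the 10 genes lay farther from the gene starts than the gained ones, over ranges that overlapped. The 10 lost regions lay between 24.88 and 86.09 kb from the 5′ end (median 50.57 kb), 4 upstream and 6 downstream. None had its centre in the gene it was given to, and 6 were intergenic. The 25 gained regions lay between 0 and 88.45 kb away (median 8.078 kb), 3 of them wholly upstream, and 13 had their centre in the gene itself. Of the lost regions 7, and of the gained regions 19, had the given gene as the nearest protein-coding one. Lost regions made up 28.6% of the regions at the 10 genes and 49.2% of all listed regions. Since 6 of the 10 lost regions were at AMOTL2 and 13 of the 25 gained ones at GADD45A and AXL, the split rests on few genes.

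Taken from the gene starts, the nearest gained region was at a median of 25.10 kb over the 10 genes (quartiles 1.567 and 78.92 kb), and the nearest lost region at 143.4 kb (quartiles 51.93 and 737.4 kb). Over all protein-coding genes, the medians were 235.4 kb for gained regions (quartiles 78.62 and 608.8 kb) and 360.1 kb for lost ones (quartiles 130.5 and 873.9 kb). Both medians of the 10 genes were thus below those of all genes, although ANKRD1, AMOTL1, AXL and CCN2 were farther from a lost region than the median gene. A gained region was the nearer of the 2 kinds at 6 of the 10 genes, and at 59.8% of all protein-coding genes. The 4 genes nearer to a lost region were CCN1, CCN2, AMOTL2 and NUAK2.

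With a window of 50 kb, CCN1 alone had both directions, AJUBA and F3 had gained regions alone and NUAK2 a lost region alone, so 3 genes had a lost region (13.98% of all genes), 7 a gained one (20.7%) and 1 both (3.10%). With 200 kb, the class of each of the 10 genes stayed as with 100 kb, while the shares of all genes rose to 34.9%, 46.3% and 18.1%. CCN2 had 0 regions at each width. Just inside the limit of 100 kb lay lost regions at AMOTL2 (86.09 kb), AJUBA (83.33 kb) and F3 (80.87 kb), and just outside it lay a lost region at F3 (111.0 kb) and gained regions at CCN1 (114.6, 127.3 and 130.7 kb) and AJUBA (130.3 kb).

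TEAD cores were frequent in the regions of both directions. The core was present in 9 of the 10 lost regions (90.0%), compared with 73.5% of all lost regions, and in 15 of the 25 gained regions (60.0%), compared with 58.8% of all gained regions. Counted per length, lost regions at the 10 genes held 1.495 matches per kb and all lost regions 0.862, while gained regions held 0.834 and 0.625 per kb. AMOTL2 accounted for 21 of the 29 matches in lost regions. The 4 lost regions of CCN1, AJUBA, F3 and NUAK2 held 0.953 per kb, and 3 of these 4 (75%) had a core. In the central 1000 bp, the core was present in 50.0% of the lost regions of the 10 genes and 57.3% of all lost regions, and in 44% and 42.9% of the gained ones.

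Among gained regions, split by the outermost 5′ end of each gene, the core was placed unevenly. The 6 promoter regions held 0.254 matches per kb (2 of 6 regions), while all gained regions at protein-coding promoters held 0.507. The 19 distal gained regions held 1.05 per kb (13 of 19), while all gained regions away from such promoters held 0.675. With the starts of all transcripts, 10 gained regions were promoter regions. Those added, at AXL and AJUBA, held 3, 1, 1 and 4 cores, so the low promoter value depends on the starts used. The 8-base forms were present in 7 of 10 lost (42.9% of all lost regions) and 11 of 25 gained regions (27.5% of all gained regions). Without AMOTL2, they were present in 2 of 4 lost regions (50%). Regions of one gene share their sequence surroundings and, where they abut, one peak, hence these shares have no error to give.

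**Figure D5:**
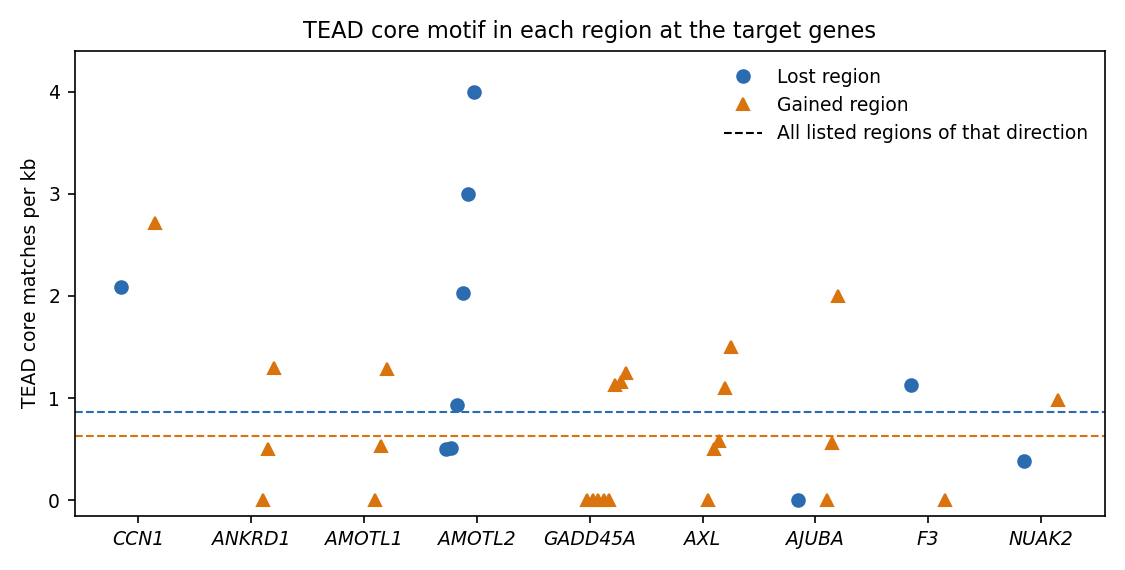
TEAD core matches per kb in each of the 35 regions, by gene, with lost regions as blue circles and gained regions as orange triangles; the dashed lines mark all lost regions (blue, 0.862 per kb) and all gained regions (orange, 0.625 per kb). The highest point is the AMOTL2 region with 4.00 matches per kb, and both regions of CCN1 lie above the dashed lines.

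The AP-1 motif was matched in 8 of 10 lost and 15 of 25 gained regions, with 56.5% and 53.6% over the whole lists. The CArG box, the element of serum response factor, was matched in 2 of 10 and 3 of 25 regions, with 14.7% and 7.76% over the lists. Median GC content was 50.4% in the lost regions of the 10 genes and 46.8% in all lost regions, and 46.25% and 46.05% in the gained ones.

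Among 18 genes of the Hippo pathway and the TEAD family, 8 had a lost region (21.6% of all protein-coding genes), 8 a gained one (30.6%), 4 both (7.23%) and 6 neither (55%). YAP1 had 3 gained regions and 0 lost ones, with one in the promoter window, 1.463 kb from the 5′ end. WWTR1, which encodes TAZ, had 3 of each direction, all distal. TEAD1 and TEAD4 each had a lost promoter region, with 2 and 1 gained regions elsewhere. SAV1, a scaffold of the Hippo kinases, had 3 lost regions, and the kinase gene STK3 and TEAD3 had 2 each. The nearest lost region was 541.4 kb from the 5′ end of STK3, a gene of 571.6 kb, and 5.123 kb from that of TEAD3. VGLL4, a TEAD-binding repressor, and MOB1A, a LATS cofactor, had 2 gained regions each. The nearest was 165.7 kb from the 5′ end of VGLL4, a gene of 215.3 kb, and 19.6 kb from that of MOB1A.

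Of 14 other genes of common YAP signatures, 6 had a lost region, 10 a gained one, 4 both and 2 neither, beside the same shares of all genes. NT5E, an ecto-enzyme of adenosine production, had the most, 6 gained and 1 lost. Gained promoter regions were at MYOF, a membrane-repair protein gene with 3 gained regions, and at ASAP1, with 3 gained and 2 lost. Lost promoter regions were at CCDC80, with 3 lost and 1 gained, and at ARHGEF17, with 2 lost. CRIM1 had 2 lost regions. LATS2 is counted in both lists.

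Since the lists show where H3K27ac differed and not where it was present, the identity of the cells cannot be checked from them. Of 10 stellate or myofibroblast markers, 6 had a lost region (21.6% of all genes) and 2 a gained one (30.6%), with 5 lost regions each at PDGFRB and COL1A2, 4 at COL1A1 and 2 gained ones each at COL1A1 and COL3A1. Lost promoter regions (1.96% of all genes) were at 4 of these markers, PDGFRB, COL1A1, COL1A2 and TAGLN, and at 1 of 4 cholangiocyte markers, KRT7, which had 5 lost and 2 gained regions. Of the other cholangiocyte markers, KRT19 had 1 lost region and EPCAM 2 gained ones. Of 4 hepatocyte markers, APOA1 alone had a region, 2 gained ones. Of 4 endothelial markers, 3 had a lost region (3 at CDH5, 1 each at PECAM1 and VWF) and 2 a gained one (2 at KDR, 1 at PECAM1). Of 4 leukocyte markers, 2 had a lost region (6 at PTPRC, 1 at CD68) and CD14 had 1 gained region. Their part in the counts of the 10 genes was not tested.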

How the data were processed

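LX-2 cells (16 samples: 8 H3K27ac libraries, 4 for each arm, and 8 input or column purified chromatin libraries, not used here) were sequenced by the authors. According to the study's methods, reads were aligned to hg38 with Chromap, peaks were called for each library against input with MACS2 (version 2.1.1.20160309 per the submitters' processing notes), duplicates and blacklisted regions were removed, and MAnorm2 compared bins of peaks over the 8 libraries. The deposited lists give chromosome, start and end, and no signal or p-value. Their names state an adjusted p of 0.15, the methods text a stricter one. Depth is unknown, and 0 columns of other samples were present.

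Starts were counted from 1. Genes came from GENCODE release 44, while the study used an earlier one. Sequences came from hg38 and RefSeq promoters (GRCh38.p14), and motifs were exact matches. Python 3.11.15, pysam 0.24.0, numpy 2.4.6 and matplotlib 3.10.9 were used. Assignment, joining and motif counting were tested on simulated data. The members and lists were chosen with earlier results of these data known. All 10 genes are named, and of other lists the genes with a promoter region and the 3 with the most lost and the most gained regions (ties included). Other genes are named where their 5′ end was nearer to a region or lay at it. Windows, joining, transcript starts and motif settings were varied.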

Additional observations from a re-analysis of the deposited data

How the results depend on the processing

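No paired analysis was possible because positions alone were deposited, without values for single libraries. Omitting a replicate and a stricter threshold could not be run either, and what depth changes in the lists is unknown. Of 61 values under an alternative, 51 stayed and 10 moved. Staying meant within 1.5 times the count, within the 95% Wilson interval of the share or within the spread of the distances. The interval treats regions as independent, which they were not, and for the lost regions it was wide (59.6 to 98.2%). Some of the 51 could not move, such as counts of genes after joining and the share in lost regions limited to distal ones. The 10 lost regions became 4 with a window of 50 kb and 16 with 200 kb, the added ones being at F3. With 50 kb, genes with a lost region went from 5 to 3 and genes with both directions from 4 to 1. With regions given to the nearest protein-coding 5′ end, the outermost of each gene, genes with both directions numbered 2 (CCN1 and F3). Genes with neither then numbered 2 (CCN2 and AJUBA) instead of 1. Joining abutting regions left 16 of the 25 gained regions. The 6 gained promoter regions became 10 with a promoter window of 5000 bp and also 10 with the starts of all transcripts. The share of lost regions with the TEAD core fell from 90.0% to 50.0% in the central 1000 bp. The lost promoter regions stayed at 0 under each alternative run.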
